A study of Homo sapiens with 6 samples.

Results

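Kruppel-like factors (KLF) are transcription factors that bind GC-rich and CACCC sequences through a carboxy-terminal array of zinc fingers. Their amino-terminal parts differ, so that some members mainly activate and others mainly repress, and several of them compete for the same sites and for the sites of the related SP factors. In the epithelium of the gut KLF5 is known as a factor of proliferating cells and KLF4 as one of differentiating, non-dividing cells, while KLF6, KLF10 and KLF11 are known as growth-restraining members and KLF10 and KLF11 as early genes of TGF-beta signalling.

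The 10 members described here were KLF2, KLF3, KLF4, KLF5, KLF6, KLF9, KLF10, KLF11, KLF13 and KLF16, taken by symbol, and all 10 were found by their NCBI Gene ID among the 18597 genes of the deposited tables. The cells were AGS, an established line from a human gastric adenocarcinoma. They had been transfected with a small interfering RNA against DUB1 (siDUB1, 3 libraries) or with a control duplex (siControl, 3 libraries), and no further genotype or agent separated the groups. The series title asks how DUB1 bears on Hippo signalling through TAZ. Whether the 3 replicates of a group came from separate cultures is not stated in the labels. The p-values therefore measure the spread between these libraries alone, which may be technical. Only a single siRNA reagent per group is named, so a response to the duplex and an effect of the target cannot be told apart. The values are FPKM, that is, counts of fragments relative to transcript length and to the size of the library, and the depth behind them is unknown. All measurements are of bulk RNA, in which fewer cells with a transcript and less of it per cell cannot be told apart.

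USP36, for which DUB1 is a synonym in RefSeq, had 4.11, 4.75 and 2.59 FPKM in siDUB1 replicates 1, 2 and 3, against 9.16, 6.74 and 7.25 FPKM in siControl. One library, siDUB1 replicate 3, stood apart. Across the 10994 tested genes, on the log2(FPKM + 1) scale, its correlation with replicates 1 and 2 of its group was 0.964 and 0.960, while all other pairs within a group were at 0.997 or 0.998. Results that rest on it are given with and without it. Of 6 epithelial markers KRT8, KRT18, KRT19, CLDN4 and EPCAM were abundant, and CDH1, the gene of E-cadherin, was low in siDUB1 (0.85 to 2.21 FPKM) and in siControl (3.08 to 3.22 FPKM). Of 12 markers of leukocytes, endothelium and fibroblasts, 9 did not reach the filter and stayed at or below 0.37 FPKM. The other 3 were LYZ and CD68, which rose, and COL1A1, which fell, and the summed level of the 12 was 392.93 to 659.88 FPKM in siDUB1 and 213.24 to 213.56 FPKM in siControl. The bulk of that sum was LYZ, the lysozyme gene, which gastric epithelium is also known to express. The part of these markers in the results for the KLF genes was not tested.

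KLF4 was the only member called lower with all 6 libraries, close to the threshold, and the members together took a smaller share of the transcripts in siDUB1 cells. The 10 members summed to 214.79, 221.27 and 111.44 FPKM in siDUB1 replicates 1, 2 and 3, against 279.82, 257.08 and 266.49 FPKM in siControl replicates 1, 2 and 3. Of the total FPKM of a library this was 0.0364%, 0.0379% and 0.0160% in siDUB1, against 0.0513%, 0.0448% and 0.0472% in siControl, so every siDUB1 library was below every control library. KLF6, KLF10 and KLF11 were, like KLF4, lower in every siDUB1 library, but did not pass the test. KLF2, KLF3, KLF5, KLF13 and KLF16 overlapped between the groups.

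**Figure D1:**
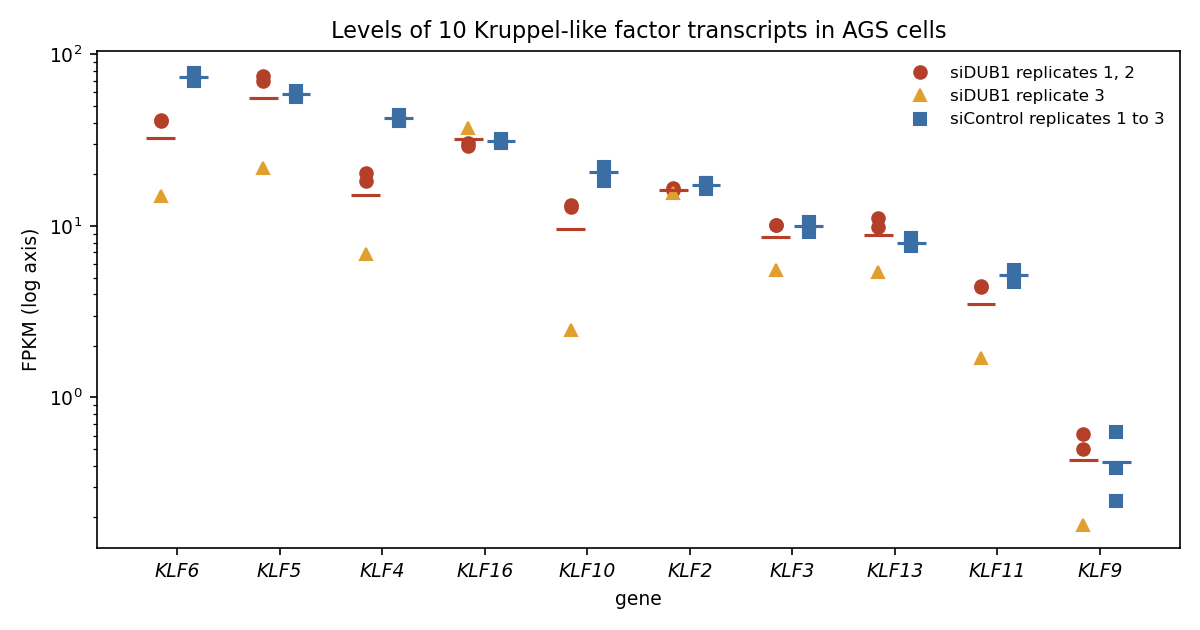
FPKM of the 10 KLF transcripts (log axis) in 3 siDUB1 and 3 siControl libraries, with siDUB1 replicate 3 as triangles and group means as bars, ordered by the siControl mean. KLF4, KLF6, KLF10 and KLF11 lie lower in each siDUB1 library than in any control, and siDUB1 replicate 3 is the lowest library for each gene except KLF16.

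In siDUB1 cells KLF5 led by mean level, at 55.6 ± 29.4 FPKM (SD, n = 3), followed by KLF6, KLF16, KLF2, KLF4, KLF10, KLF13, KLF3, KLF11 and KLF9. The neighbours in this order overlapped between libraries except KLF16 and KLF2, KLF3 and KLF11, and KLF11 and KLF9. In siControl cells KLF6 led with 74.1 ± 3.97 FPKM (SD, n = 3), and KLF5, KLF4, KLF16, KLF10, KLF2, KLF3, KLF13, KLF11 and KLF9 followed. There no pair of neighbours overlapped. KLF4 was thus the fifth member by mean in siDUB1 and the third in siControl.

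The abundant growth-restraining and differentiation-linked members come first. KLF4 (NCBI Gene 9314, GRCh38 chromosome 9, 107484852 to 107489769), also known as a pluripotency factor, had 20.38, 18.35 and 6.89 FPKM in siDUB1 replicates 1, 2 and 3, against 44.39, 40.73 and 42.46 FPKM in siControl. Every siDUB1 library was far below the lowest control, replicate 3 furthest, and the groups did not overlap. The mean was 15.2 ± 7.27 FPKM in siDUB1 and 42.5 ± 1.83 FPKM in siControl (SD, n = 3 each), 2.80 times lower. The log2 change was -1.55 (SE 0.37, limma adjusted p = 0.0407). KLF4 was the only 1 of 9 tested members that passed, a share of 11.1%, while 5.92% of the 10994 tested genes were called lower and 8.13% higher (651 and 894 genes). The split depended on scaling: with size factors 662 genes were higher and 731 lower. The call of KLF4 lay close to the threshold. Its adjusted p (limma) was 0.054 and 0.0549 without siDUB1 replicate 1 or 2, 2.87e-08 without siDUB1 replicate 3, and 0.16, 0.137 and 0.152 without siControl replicate 1, 2 or 3. The change without siDUB1 replicate 3 was -1.10 (95% interval -1.23 to -0.96).

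KLF6 (NCBI Gene 1316, chromosome 10, 3775996 to 3785209), a growth suppressor that is induced early after injury, had 40.89, 41.51 and 14.94 FPKM in siDUB1 replicates 1, 2 and 3, against 77.49, 69.71 and 75.01 FPKM in siControl. The groups did not overlap. Its log2 change of -1.30 did not pass (SE 0.38, 95% interval -2.20 to -0.39, limma adjusted p = 0.0677). It passed with size factors (adjusted p = 0.0435), with quantile normalization (adjusted p = 0.0282) and without siDUB1 replicate 3 (log2 change -0.83, adjusted p = 1.34e-07), all by limma. The ratio of KLF6 to KLF4 was 2.01, 2.26 and 2.17 in siDUB1 replicates 1, 2 and 3, against 1.75, 1.71 and 1.77 in siControl. Every siDUB1 library was above each control, and the mean was 2.15 ± 0.129 in siDUB1 and 1.74 ± 0.0278 in siControl (SD, n = 3 each), 1.23 times higher.

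KLF10 (NCBI Gene 7071, chromosome 8, 102648784 to 102655725), the TGF-beta-inducible early gene that represses SMAD7 and cell division, had 12.86, 13.30 and 2.48 FPKM in siDUB1 replicates 1, 2 and 3, against 22.18, 18.31 and 21.52 FPKM in siControl. All 3 siDUB1 values were lower than any control, and replicate 3 was far below the other 2 of its group. The log2 change was -1.29 (SE 0.54, 95% interval -2.59 to 0.01, limma adjusted p = 0.152). Without siDUB1 replicate 3 it was -0.62 and passed (limma adjusted p = 2.77e-05). Its relative KLF11 (NCBI Gene 8462, chromosome 2, 10043550 to 10054836), a second TGF-beta-inducible repressor, had 4.38, 4.46 and 1.70 FPKM in siDUB1, against 5.54, 4.68 and 5.31 FPKM in siControl. These groups did not overlap either, although replicates 1 and 2 were close to the lowest control. KLF11 did not pass with all libraries (log2 change -0.52, limma adjusted p = 0.241) or without siDUB1 replicate 3 (log2 change -0.19, adjusted p = 0.0729). In all, 4 of 9 tested members lay lower in every siDUB1 library (44.4%), against 28.5% of all tested genes, and none lay higher in each, against 24.8%.

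KLF5 (NCBI Gene 688, chromosome 13, 73054976 to 73077538), which drives proliferation in the crypt compartment and is frequently gained in gastric tumours, had 70.08, 74.87 and 21.77 FPKM in siDUB1 replicates 1, 2 and 3, against 61.35, 56.72 and 57.22 FPKM in siControl. Replicates 1 and 2 were higher than each control and replicate 3 was lower than each. With all 6 libraries the log2 change was -0.26 and its 95% interval of -1.34 to 0.83 spanned 0 (limma adjusted p = 0.701). Without siDUB1 replicate 3 the direction turned, with a log2 change of 0.31 (95% interval 0.19 to 0.42, adjusted p = 4.38e-04). KLF13 (NCBI Gene 51621, chromosome 15, 31326835 to 31435665), a repressor that recruits SIN3A and also regulates the chemokine RANTES in T cells, behaved alike. It had 9.90, 11.13 and 5.37 FPKM in siDUB1, against 8.51, 7.73 and 7.65 FPKM in siControl. The log2 change of KLF13 was 0.08 with all libraries (limma adjusted p = 0.843) and 0.36 without siDUB1 replicate 3 (adjusted p = 0.00147). It was -0.03 and -0.10 without siDUB1 replicate 1 or 2. Without siDUB1 replicate 3, then, 2 members were higher and 3 lower among 9, where the same fit put 31.7% of the 10994 genes higher and 25.6% lower.

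**Figure D2:**
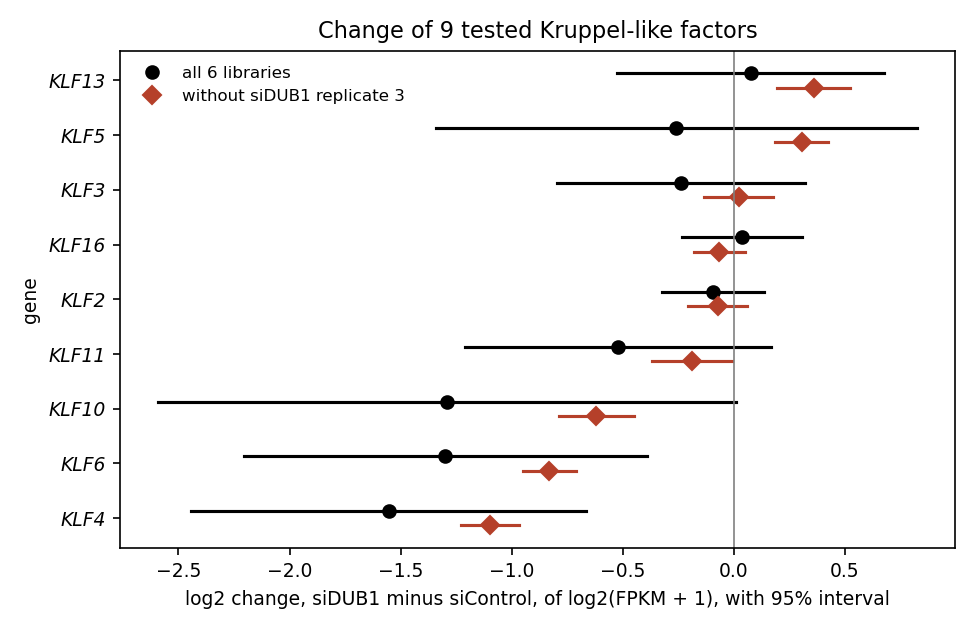
Log2 change of log2(FPKM + 1), siDUB1 minus siControl, of the 9 tested KLF genes with 95% intervals from limma, for all 6 libraries (black circles) and without siDUB1 replicate 3 (red diamonds). KLF4, KLF6 and KLF10 are negative in both fits, while KLF5 is at -0.26 with all libraries and 0.31 without that replicate.

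Of the remaining members, KLF2 (NCBI Gene 10365, chromosome 19, 16324826 to 16328685), best known from endothelium and resting T cells, had 16.17, 16.66 and 15.60 FPKM in siDUB1 replicates 1, 2 and 3, against 17.69, 17.80 and 16.41 FPKM in siControl. The groups overlapped, and the 95% interval of the log2 change was -0.32 to 0.14. KLF16 (NCBI Gene 83855, chromosome 19, 1852399 to 1876536), a repressor described in brain and in metabolic genes, had 29.36, 30.33 and 37.00 FPKM in siDUB1, against 31.51, 31.96 and 30.24 FPKM in siControl. Its interval was -0.23 to 0.31, and it was the sole member for which siDUB1 replicate 3 was the highest library. KLF3 (NCBI Gene 51274, chromosome 4, 38664199 to 38701517), a repressor that works through CtBP, had 10.16, 10.16 and 5.51 FPKM in siDUB1, against 10.53, 9.19 and 10.28 FPKM in siControl. Replicates 1 and 2 were within the control range, and the interval of the change was -0.79 to 0.32. KLF9 (NCBI Gene 687, chromosome 9, 70384604 to 70414657), a glucocorticoid- and thyroid hormone-inducible repressor, was low throughout. It had 0.61, 0.50 and 0.18 FPKM in siDUB1, against 0.63, 0.25 and 0.39 FPKM in siControl, did not reach the filter of 1 FPKM in 3 libraries and was not tested.

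Exons of KLF3, KLF11 and KLF16 overlap genes on the opposite strand in GENCODE 29, by 266, 416 and 483 bases, among them KLF3-AS1. Whether the counting used strand is not stated in the labels, and if it did not, reads of these pairs cannot be told apart. RefSeq also lists pseudogenes of KLF2, KLF3 and KLF4, and how reads shared with them were assigned is not given either.

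The balance between members within a library does not depend on the scaling of libraries against each other. It does still carry the departure of siDUB1 replicate 3, which differed from gene to gene. KLF5 to KLF4, the proliferation-linked over the differentiation-linked factor, was 3.44, 4.08 and 3.16 in siDUB1 replicates 1, 2 and 3, against 1.38, 1.39 and 1.35 in siControl. All siDUB1 libraries, replicate 3 included, were above the controls, and the mean was 3.56 ± 0.472 in siDUB1 and 1.37 ± 0.0235 in siControl (SD, n = 3 each), 2.59 times higher. KLF5 to KLF6 was 1.71, 1.80 and 1.46 in siDUB1, against 0.792, 0.814 and 0.763 in siControl, so that KLF5 exceeded KLF6 in every siDUB1 library and in no control. KLF5 to KLF10 was 5.45, 5.63 and 8.78 in siDUB1, against 2.77, 3.10 and 2.66 in siControl. KLF13 to KLF4 was 0.486, 0.607 and 0.779 in siDUB1, against 0.192, 0.190 and 0.180 in siControl. For KLF16 to KLF2 the values were 1.82, 1.82 and 2.37 in siDUB1 and 1.78, 1.80 and 1.84 in siControl, and these overlapped. Each of the 5 ratios that separated the groups had a two-sided exact permutation p of 0.1, the smallest that 3 against 3 allows, or 0.12 adjusted by Benjamini-Hochberg over the 6 ratios computed, and KLF16 to KLF2 had 0.4. The 6 pairs were chosen after the values were seen, most of them with a denominator already known to be lower in every siDUB1 library. Their p-values are therefore no independent support for the separation, and the adjustment leaves out all pairs that were not computed.

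**Figure D3:**
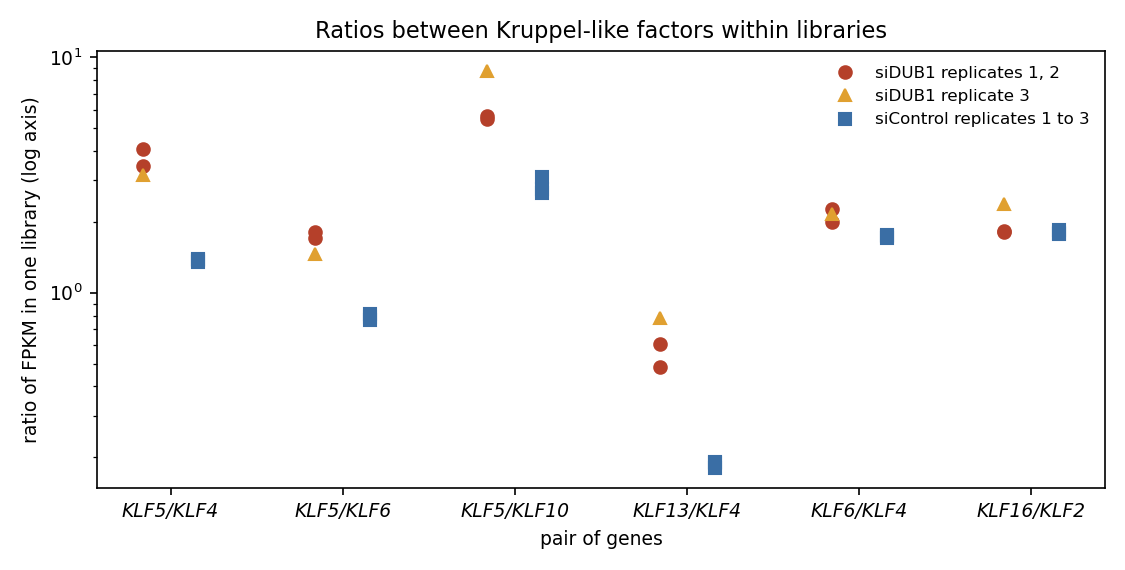
Ratios of FPKM between pairs of KLF genes within each library (log axis), for 3 siDUB1 libraries (replicate 3 as triangles) and 3 siControl libraries. KLF5 to KLF4 is at 3.16 to 4.08 in siDUB1 and at 1.35 to 1.39 in siControl, with replicate 3 above the controls. For KLF5 to KLF10 replicate 3 lies apart from its group, at 8.78 against 5.45 and 5.63 in siDUB1 replicates 1 and 2.

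The departure of siDUB1 replicate 3 was larger for several KLF genes than for most genes. Its difference from the mean of siDUB1 replicates 1 and 2, on the log2(FPKM + 1) scale, was -2.02 for KLF10, -1.69 for KLF5, -1.40 for KLF6 and -1.37 for KLF4. The median over all tested genes was -0.24, and 80% of genes lay between -1.11 and 0.47. Only 0.164% of the tested genes were as low as KLF10 or lower, and 4.15% as low as KLF4. KLF11, KLF13, KLF3 and KLF9 were at -1.01, -0.85, -0.78 and -0.40, and KLF2 and KLF16 at -0.07 and 0.30. The transcripts of KLF10, KLF5, KLF6 and KLF4 had a GC content of 46.3%, 43.0%, 45.9% and 58.6%, against a median of 50.3% over all tested genes. It was 49.9% for KLF11, 60.9% for KLF13, 46.3% for KLF3, 46.3% for KLF9, 66.8% for KLF2 and 72.7% for KLF16. KLF3 and KLF10, with nearly the same GC content, were at -0.78 and -2.02. KLF13, above the median in GC, was lower than KLF3. The GC value of KLF13 comes from annotated transcripts with a median length of only 574 bases, the shortest among the members. KLF9 did not reach the filter, and its -0.40 understates the change of so low a gene. Whether GC content bears on the departure of the members was not tested. With each library corrected for GC content and length, an alternative added after the data were seen, 2 members were lower in the fit of all 6 libraries, KLF4 and KLF6 (log2 change of KLF6 -1.03, limma adjusted p = 0.0298). Of the 10575 genes in that fit 1294 were lower and 1258 higher. With the correction and without siDUB1 replicate 3, KLF5 (0.42, adjusted p = 3.01e-05) and KLF13 (0.24, adjusted p = 0.023) were higher. KLF4 (-1.18, adjusted p = 2.24e-07), KLF6 (-0.73, adjusted p = 3.67e-07) and KLF10 (-0.54, adjusted p = 6.88e-05) were lower. KLF2 and KLF16, with changes of only -0.18 and -0.19, were called lower too (adjusted p = 0.0129 and 0.00663, all by limma). Calls were common in this fit, with 3369 of 10575 genes higher and 2795 lower.

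**Figure D4:**
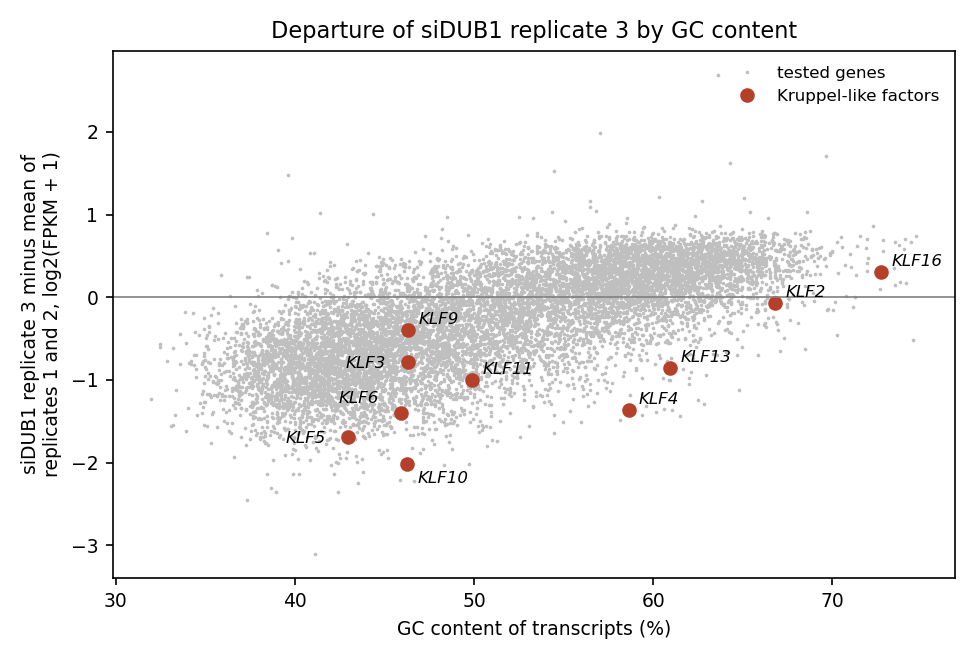
Difference of siDUB1 replicate 3 from the mean of siDUB1 replicates 1 and 2 on the log2(FPKM + 1) scale against the GC content of transcripts in percent, for the tested genes with a GC value (grey) and the 10 KLF genes (red). KLF2 and KLF16 lie near 0 at high GC content, and KLF10, KLF5, KLF6 and KLF4 lie at -1.37 or lower.

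Promoter windows of 300 bases, from 250 before to 50 after a transcript start, were available in RefSeq (GRCh38.p14) for 8 of the 10 members. KLF3 and KLF10 were not among them. The windows of KLF4 and KLF6, which were lower in each siDUB1 library, are set beside those of KLF2, which overlapped, and of KLF5, whose direction turned with siDUB1 replicate 3. They are printed 5′ to 3′ on the strand of the gene, at chr9:107489720-107490019 (minus strand) for KLF4, chr10:3785160-3785459 (minus) for KLF6, chr19:16324576-16324875 (plus) for KLF2 and chr13:73058755-73059054 (plus) for KLF5, the second of 2 starts listed for that gene. Capitals mark GGGCGG, the GC box read by SP and KLF factors, and CACCC, the other core recognised by the family. They also mark CTA and TAG with any 4 bases between them, a pattern looser than the MEF2 site. Each was sought on either strand.
KLF4: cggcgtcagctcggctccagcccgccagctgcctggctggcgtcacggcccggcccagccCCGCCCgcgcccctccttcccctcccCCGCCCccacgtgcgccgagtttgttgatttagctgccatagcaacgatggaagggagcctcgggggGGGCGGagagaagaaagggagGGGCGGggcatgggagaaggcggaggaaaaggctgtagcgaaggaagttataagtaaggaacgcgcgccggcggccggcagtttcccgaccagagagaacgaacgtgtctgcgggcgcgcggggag
KLF6: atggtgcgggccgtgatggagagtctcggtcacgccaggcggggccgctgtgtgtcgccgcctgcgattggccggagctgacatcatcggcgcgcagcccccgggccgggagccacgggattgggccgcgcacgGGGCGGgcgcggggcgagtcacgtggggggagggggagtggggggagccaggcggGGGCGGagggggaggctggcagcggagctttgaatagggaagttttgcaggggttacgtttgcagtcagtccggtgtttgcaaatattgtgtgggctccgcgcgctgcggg
KLF2: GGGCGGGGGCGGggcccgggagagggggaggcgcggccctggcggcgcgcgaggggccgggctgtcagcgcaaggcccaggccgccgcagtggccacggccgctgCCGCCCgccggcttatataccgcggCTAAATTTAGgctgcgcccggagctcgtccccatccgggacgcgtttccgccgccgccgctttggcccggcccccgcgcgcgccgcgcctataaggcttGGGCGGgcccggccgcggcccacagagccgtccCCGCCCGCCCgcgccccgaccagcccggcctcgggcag
KLF5: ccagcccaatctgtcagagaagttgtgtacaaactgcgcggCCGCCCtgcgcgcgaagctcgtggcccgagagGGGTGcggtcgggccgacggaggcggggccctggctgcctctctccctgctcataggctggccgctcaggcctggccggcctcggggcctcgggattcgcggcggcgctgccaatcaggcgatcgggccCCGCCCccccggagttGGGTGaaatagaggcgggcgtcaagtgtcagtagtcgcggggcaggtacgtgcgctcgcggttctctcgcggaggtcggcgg
GGGCGG occurred 4 times in KLF4, 2 times in KLF6, 6 times in KLF2 and 2 times in KLF5, overlapping matches included. Counted by gene, it was present in a window of 7 of the 8 members with a sequence, all but KLF9. KLF5 and KLF11 had 2 windows each, and the first of KLF5 held none. Counted by window, which is not the same measure, it was in 45.0% of the 35116 windows of the table. CACCC was absent from the windows of KLF4, KLF6 and KLF2 and occurred 2 times in that of KLF5, while 59.9% of all windows held it. The loose MEF2 pattern was found in KLF2 (CTAAATTTAG) and KLF11 (CTAGCGGTAG) and in 2.73% of all windows. A MEF2 site has only A or T at the 4 middle bases, so the match in KLF11 is not one. The AP-1 site TGACTCA (4.95% of windows) and the TEAD site GGAATG (14.0%) were in none of the members' windows, and the cyclic AMP site TGACGTCA (1.85%) was in that of KLF11 alone. These are matches of letters within 300 bases and say nothing of binding.

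The other KLF genes were mostly silent in AGS. Of 7, only KLF7 could be tested, with 1.65, 1.96 and 0.97 FPKM in siDUB1, against 2.93, 2.43 and 2.58 FPKM in siControl (log2 change -0.55, limma adjusted p = 0.0804). It passed without siDUB1 replicate 3 (log2 change -0.38, limma adjusted p = 0.00454). KLF12 was at 0.53 to 0.75 FPKM in siDUB1 and 0.80 to 1.25 FPKM in siControl, KLF14 was listed at 0 in all 6 libraries, and KLF1, KLF8, KLF15 and KLF17 did not exceed 0.21 FPKM. Among the SP factors, whose zinc fingers read the same GC boxes, 6 were tested, and 1 rose, 1 fell and 4 did not pass, where 8.13% of all tested genes rose and 5.92% fell. SP5, a target of Wnt signalling that represses through SP sites, had 153.54, 148.98 and 121.58 FPKM in siDUB1, against 58.39, 58.05 and 52.47 FPKM in siControl, a log2 change of 1.31 (SE 0.11, limma adjusted p = 0.00273). Its siDUB1 values were all more than 2 times the highest control. SP6, a factor of tooth and skin epithelium, fell to 0.857 ± 0.0404 FPKM in siDUB1, against 1.55 ± 0.165 FPKM in siControl (SD, n = 3 each, adjusted p = 0.0283). SP6 was near the filter of 1 FPKM and reached it only through siControl, the group where it was high. SP1, SP2, SP3 and SP4 did not pass. Without siDUB1 replicate 3, SP3 was lower (log2 change -0.25, limma adjusted p = 0.0218).

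KLF factors act through shared partners. Of 8 corepressor genes described here 2 rose, none fell and 6 did not pass, beside 8.13% higher and 5.92% lower over all tested genes. HDAC1 rose to 130.0 ± 3.89 FPKM in siDUB1, against 91.4 ± 0.424 FPKM in siControl (limma adjusted p = 0.0105), and HDAC3 to 45.5 ± 2.22 FPKM in siDUB1, against 31.4 ± 1.63 FPKM in siControl (SD, n = 3 each, adjusted p = 0.016). The CtBP and SIN3 genes did not pass, nor did NCOR1 and HDAC2. Without siDUB1 replicate 3 the counts were 4 higher, 2 lower and 2 not passed. CTBP1 and SIN3A were then higher, and CTBP2 and SIN3B lower. The same fit put 31.7% of all tested genes higher and 25.6% lower. None of 4 coactivator genes passed, while in the fit without siDUB1 replicate 3 there was 1 higher and 2 lower. The 2 with the smallest p were KAT2A (33.1 FPKM in siDUB1, 26.2 FPKM in siControl, adjusted p = 0.102) and CREBBP (4.82 FPKM in siDUB1, 8.29 FPKM in siControl, adjusted p = 0.113). Of 5 tested ubiquitin ligase genes SMURF2 fell to 4.23 ± 1.26 FPKM in siDUB1, against 9.86 ± 0.667 FPKM in siControl (SD, n = 3 each, limma adjusted p = 0.0227). The other 4 did not pass (5.92% lower over all tested genes), among them WWP1 and FBXW7, whose products are known to mark KLF5 for degradation. Without siDUB1 replicate 3, 2 ligase genes were higher and 2 lower. WWP1 then turned from a log2 change of -0.35 to 0.31 (limma adjusted p = 8.41e-04).

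Signalling inputs were examined through their own transcripts. MEK5, ERK5 and the MEF2 factors induce KLF2 and KLF4 in other cell types, and of 7 tested genes of that route 1 rose and 6 did not pass, beside 8.13% higher over all tested genes. MAP2K5, the gene of MEK5, rose to 8.77 ± 0.288 FPKM in siDUB1, against 5.89 ± 0.498 FPKM in siControl (SD, n = 3 each, limma adjusted p = 0.0367). MAP3K2, MAP3K3, MAPK7 (the gene of ERK5), MEF2A and MEF2D lay lower in every siDUB1 library, as 28.5% of all tested genes did. MEF2B overlapped. Without siDUB1 replicate 3, 1 gene of the route was higher and 4 lower, where 31.7% of all tested genes were higher and 25.6% lower. Of 8 tested genes of TGF-beta and glucocorticoid signalling, which induce KLF10, KLF11 and KLF9, 2 fell and 6 did not pass, beside 5.92% lower over all tested genes. The inhibitory SMAD7 fell to 6.26 ± 1.20 FPKM in siDUB1, against 11.8 ± 0.174 FPKM in siControl (adjusted p = 0.0209), and SMAD3 to 9.07 ± 1.24 FPKM in siDUB1, against 14.1 ± 0.762 FPKM in siControl (SD, n = 3 each, adjusted p = 0.0346). In the fit without siDUB1 replicate 3, 1 gene of this list was higher and 5 lower.

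Of 19 tested genes described here and reported elsewhere as targets of KLF factors 7 fell, 1 rose and 11 did not pass, beside 5.92% lower and 8.13% higher over all tested genes. Their median log2 change was -0.44, while that over all tested genes was -0.06. The list mixes activated and repressed targets of different members. CCND1, the cyclin D1 gene that KLF5 activates and KLF4 represses, fell to 133 ± 17.0 FPKM in siDUB1, against 295 ± 16.2 FPKM in siControl (limma adjusted p = 0.00399). KRT13, a keratin of differentiating squamous epithelium, fell to 4.87 ± 1.51 FPKM in siDUB1, against 11.6 ± 0.539 FPKM in siControl (adjusted p = 0.0163), and SMAD7 is described above. ALPI, the intestinal alkaline phosphatase gene that KLF4 can induce, rose to 1.27 ± 0.207 FPKM in siDUB1, against 0.677 ± 0.0462 FPKM in siControl (SD, n = 3 each, adjusted p = 0.0381). ALPI was below 1 FPKM in every control and reached the filter only through siDUB1. FGFBP1, among the 7 that fell, was below 1 FPKM in every siDUB1 library and reached it only through siControl. Whether these genes were tested thus depended on the group where they were high. CDKN1A, the p21 gene that KLF4 and KLF6 can activate, had 491.62, 477.18 and 602.86 FPKM in siDUB1, against 705.17, 719.52 and 696.65 FPKM in siControl. The groups did not overlap, but the test was not passed (log2 change -0.44, limma adjusted p = 0.0525). Without siDUB1 replicate 3 the counts were 4 higher, 13 lower and 2 not passed, in a fit where calls were common throughout, with 31.7% of the 10994 genes up and 25.6% down.

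Among the genes of these related lists that passed, SP5 and CCND1 did so with each of the 6 libraries left out in turn (adjusted p at most 0.0306 and 0.0421). The others, SP6, HDAC1, HDAC3, SMURF2, MAP2K5, SMAD3, SMAD7, KRT13, ALPI, IGF1R, ODC1, MAOA and FGFBP1, lost the call whichever siControl replicate was left out, with limma adjusted p of 0.0746 to 0.18. Without siDUB1 replicate 3 each of them passed, and no direction turned under the 16 or 17 alternatives in which each gene had a value.

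**Figure D5:**
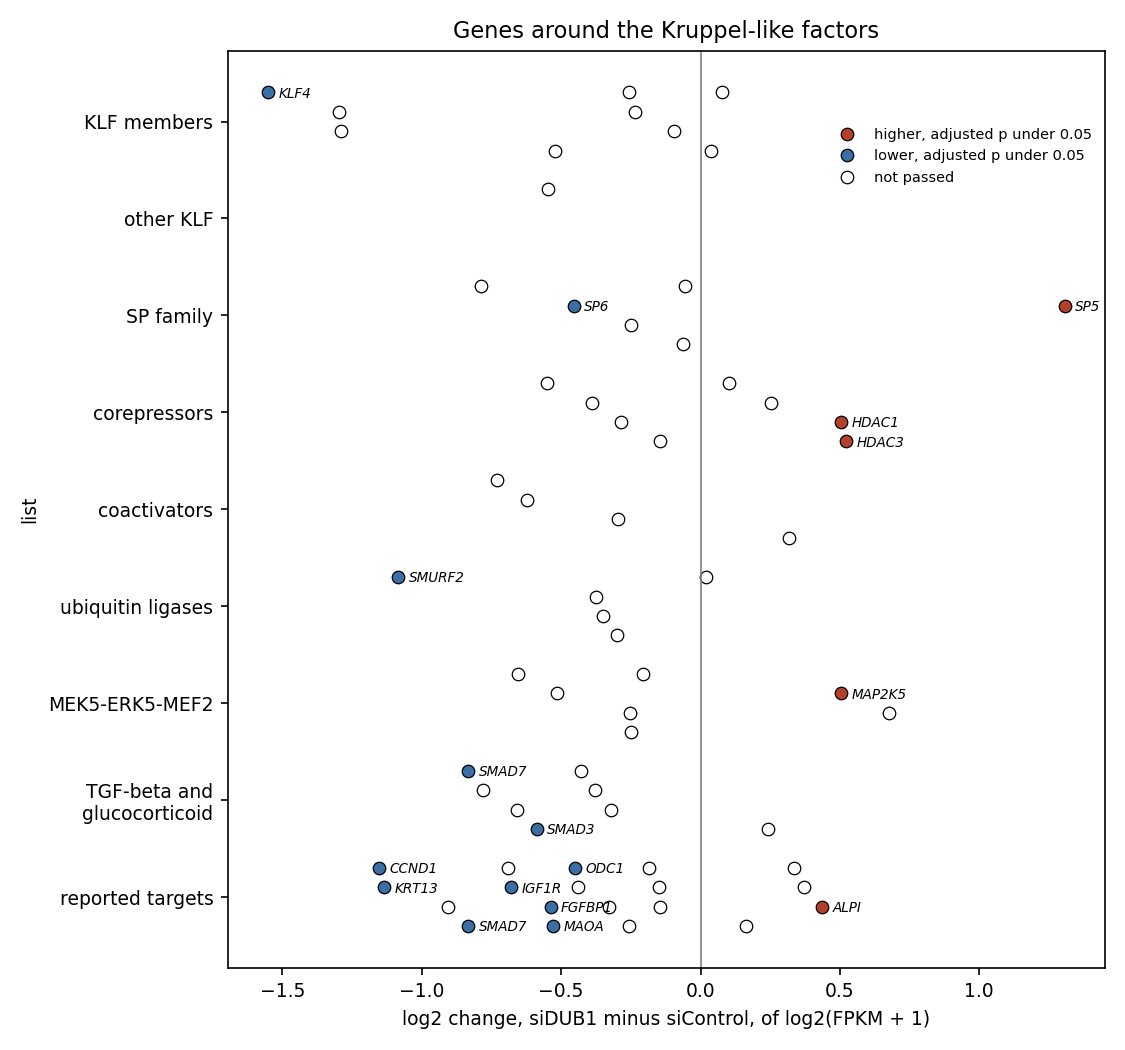
Log2 change of log2(FPKM + 1), siDUB1 minus siControl, of each tested gene in the KLF family and in 8 lists of related genes, with genes past the limma threshold filled and named (red higher, blue lower). KLF4 has the lowest value at -1.55 and SP5 the highest at 1.31, and most genes of each list are open circles.

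The 5 tested genes outside the family whose centred log2(FPKM + 1) profile over the 6 libraries was nearest to that of KLF4, the called member, were SGK1, CRIM1, LIFR, STT3B and SLC19A2, at root mean square distances of 0.0685, 0.0742, 0.085, 0.0861 and 0.0867. SGK1, a serum- and glucocorticoid-induced kinase, had 6.16, 5.86 and 2.03 FPKM in siDUB1, against 15.37, 13.62 and 15.55 FPKM in siControl. These genes share the lower level in siDUB1 and the further drop in replicate 3, which the choice of nearest profiles fixes.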

How the data were processed

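RNA from AGS cells, extracted with Trizol, was sequenced on the BGISEQ-500 platform, per the labels' protocols. The authors deposited 1 table per library with a value in FPKM for each NCBI Gene ID, per the file headers. Per the submitters' processing notes the reads were placed on GRCh38. The aligner, counting tool, annotation and strand setting are not given in the sources used here, and depth is unknown. FPKM is relative to the whole library, so that abundant genes that rise push the others down.

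Gene IDs were matched to RefSeq symbols for 18437 of 18597 genes. Genes with at least 1 FPKM in at least 3 libraries (10994) were tested on log2(FPKM + 1), which understates the change of low genes, with limma 3.58.1 in R 4.3.3 (eBayes with a mean-variance trend, no covariate), two-sided, with Benjamini-Hochberg adjustment over all of them and a threshold of 0.05. The script was tried on simulated data. Intervals are 95% and from the same fit. GC content and length were medians over protein-coding transcripts in GENCODE 29, found for 96.2% of tested genes, and entered as splines with 4 degrees of freedom each.

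The members, lists and naming rule were chosen with earlier results of these data known. Named were USP36, every member, and from each list the genes with the smallest adjusted p (up to 3 risen and 3 fallen), or the 2 with the smallest p where none passed. The other genes named complete a small count or a figure, or were chosen after their values were seen, CDKN1A among them. A few genes of the lists are not reported here and are left out of the list counts. Alternatives were other scalings, filters, pseudocounts and priors, a block for the replicate number, and each library left out in turn.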

Additional observations from a re-analysis of the deposited data

How the results depend on the processing

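KLF4 kept a negative change under all 17 alternatives (-1.82 to -1.10 on the log2 scale), and KLF2, KLF6 and KLF10 did too. KLF11 did so wherever it was tested. A kept sign is not a clear fall, since the change of KLF2 was only -0.09 with all libraries. No member was called higher and 1 lower with all libraries. Leaving out 1 library each gave 0 to 2 members higher and 0 to 3 lower, and 54 to 3481 of all genes higher and 71 to 2818 lower. Members called lower numbered 2 with size factors, 2 with quantile normalization (1364 genes higher and 1190 lower) and 0 with no low-value filter (KLF4 adjusted p = 0.0593). With size factors 662 genes were higher and 731 lower, against 894 and 651 as reported.

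Whether the replicate numbers pair the libraries is not stated in the labels. The deviations of same-numbered libraries from their group means correlated at 0.254, -0.491 and -0.227. These values cannot decide it, because siDUB1 replicate 3 dominates the deviations of its group. With the replicate block 81 genes were higher, 98 lower and 0 members lower (KLF4 adjusted p = 0.0754).

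With the GC and length correction, chosen after seeing the data, 1294 genes and 2 members were lower, and the changes of KLF5, KLF13 and KLF16 turned to 0.046, -0.25 and -0.35. With siDUB1 replicate 3 left out as well, 3369 genes were higher and 2795 lower, 2 members were higher and 5 lower, and KLF3, KLF5 and KLF16 stood at 0.10, 0.42 and -0.19. Leaving out 1 library each, the change ranged from -0.37 to 0.023 for KLF3, -0.56 to 0.31 for KLF5, -0.10 to 0.36 for KLF13 and -0.063 to 0.098 for KLF16. KLF3, KLF5 and KLF16 turned without siDUB1 replicate 3, and KLF13 without siDUB1 replicate 1 or 2. The cause was not tested. The depth of the libraries is unknown, and KLF9 was too low to compare.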
